A study of Rattus norvegicus with 2 samples.

Results

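Genes of glycolysis and of the response to low oxygen were compared between 2 colonies grown from C6, an established line of rat glioma cells. The set was a list of 33 genes given by name, put together with earlier results of these data known, and 26 of them were measured among 18166 genes in all. Of these 26, 17 belong to glycolysis (4 carriers of glucose and lactate, 9 enzymes and 4 regulators) and 9 to the other side (6 hypoxia targets and 3 oxygen-sensing genes). Hk1 and Pgam1 were not analysed here. Tpi1, Gapdh, Eno1, Pkm and Bnip3 were left out because their array features are also assigned to other genes, named as copies or pseudogenes of them. The listed gene Ca9 was matched through its current rat symbol, Car9.

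The groups were colony No.4 and colony No.8, each measured once, on 1 whole-transcript array of total RNA. Both were cultured in DMEM with 10% fetal bovine serum. The same treatment, the GSK3 inhibitor CHIR99021 at 20 µM with forskolin, which raises cyclic AMP, at 100 µM for 35 days, is written for both, yet both are titled undifferentiated. No label says whether the RNA was taken before or after it. Each is 1 picked colony of a cultured tumour line, and neither array is labelled as an untreated or normal control.

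Glycolysis converts glucose into pyruvate, and tumour cells often run it at a high rate and release the product as lactate. In low oxygen the transcription factor HIF, made of an oxygen-regulated alpha subunit and the partner ARNT, is no longer marked for destruction by the EGLN prolyl hydroxylases and raises the transcription of glucose carriers, most glycolytic enzymes, and genes for vessel growth, pH control and collagen modification. Many gliomas show this programme around areas of necrosis.

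Levels are the log2 values as deposited, and every difference has No.4 subtracted from No.8. With 1 array per colony there was no replicate, no test was possible, and a difference between the colonies cannot be told apart from one between 2 cultures or 2 hybridisations. The number of arrays limits the precision. A gene was past the floor when either colony reached 4.33, the median of all values, and all 26 genes were. No detection call was used. Olfactory receptor genes, which such cells are not known to use, reached 5.67 at their 99th percentile, and levels under 5.67 were treated as possibly near background. All 26 genes had 1 feature each. In 118 other genes with a pair of bright features, the difference disagreed between the 2 features by a median of 0.12, and the 90th percentile of that disagreement was 0.41.

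The labelled cell type was set against its markers. The intermediate filament genes Vim (12.57 and 12.60 in No.4 and No.8) and Nes (9.54 and 9.94), S100b (8.24 and 8.46) and Sox2 (9.08 and 8.44) were well past the floor. The astrocyte genes Slc1a3 and Aqp4 were under the floor in both colonies, and Gfap was at 4.11 and 5.17. As deposited, Gfap was 2.07-fold higher in No.8. Its fold was 1.79 counted from the floor and 1.0, no difference, counted from 5.67. The gap junction gene Gja1, the last of these 8 markers, was at 7.99 and 6.86, past 2-fold toward No.4. None of the 6 microglial and none of the 3 measured endothelial markers reached the floor, and 1 of 4 fibroblast (Col3a1) and 1 of 4 neuronal markers (Rbfox3) did, both under 5.67. Of 4 markers of the oligodendrocyte lineage, 2 were at least 2-fold lower in No.8, Olig2 (6.36 and 4.22) and Cspg4 (6.37 and 4.62). Of all genes past the floor, 2.57% were that much higher in No.4. Both were under 5.67 in No.8, and counted from that level the folds were 1.61 and 1.62. Pdgfra was at 10.24 and 9.53, and Mbp at 4.93 and 4.89. The part of these lineage markers in the differences below was not tested. In such bulk samples, fewer cells of a type and less RNA per cell cannot be told apart.

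Of the 26 genes, 2 differed by at least 2-fold, in opposite directions, and 10 by at least 1.5-fold. The glucose carrier gene Slc2a1 was higher in No.8, and Pfkfb3, which encodes the enzyme that makes and removes the activator of phosphofructokinase, was higher in No.4. Among all 11069 genes past the floor, 5.47% differed by at least 2-fold (2.91% toward No.8 and 2.57% toward No.4), so 2 of 26 is near the background. No gene of the set differed by 4-fold, and 0.867% of all genes past the floor did. The 10 genes at 1.5-fold or more (6 higher in No.8 and 4 higher in No.4, among them Pfkfb2 and Egln3, which are near background) stand beside 17.8% of all genes past the floor (9.87% toward No.8 and 7.93% toward No.4). Of the 23 genes at 5.67 or more in both colonies, 8 differed by at least 1.5-fold and 2 by at least 2-fold, where 16.7% and 4.08% of all 7376 such genes did. The median absolute difference over these 23 was 0.34, and over the 7376 it was 0.26. The directions were mixed, with 14 genes higher in No.8 and 12 higher in No.4, while 53.2% of all genes past the floor were higher in No.8 and 45.5% in No.4.

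**Figure D1:**
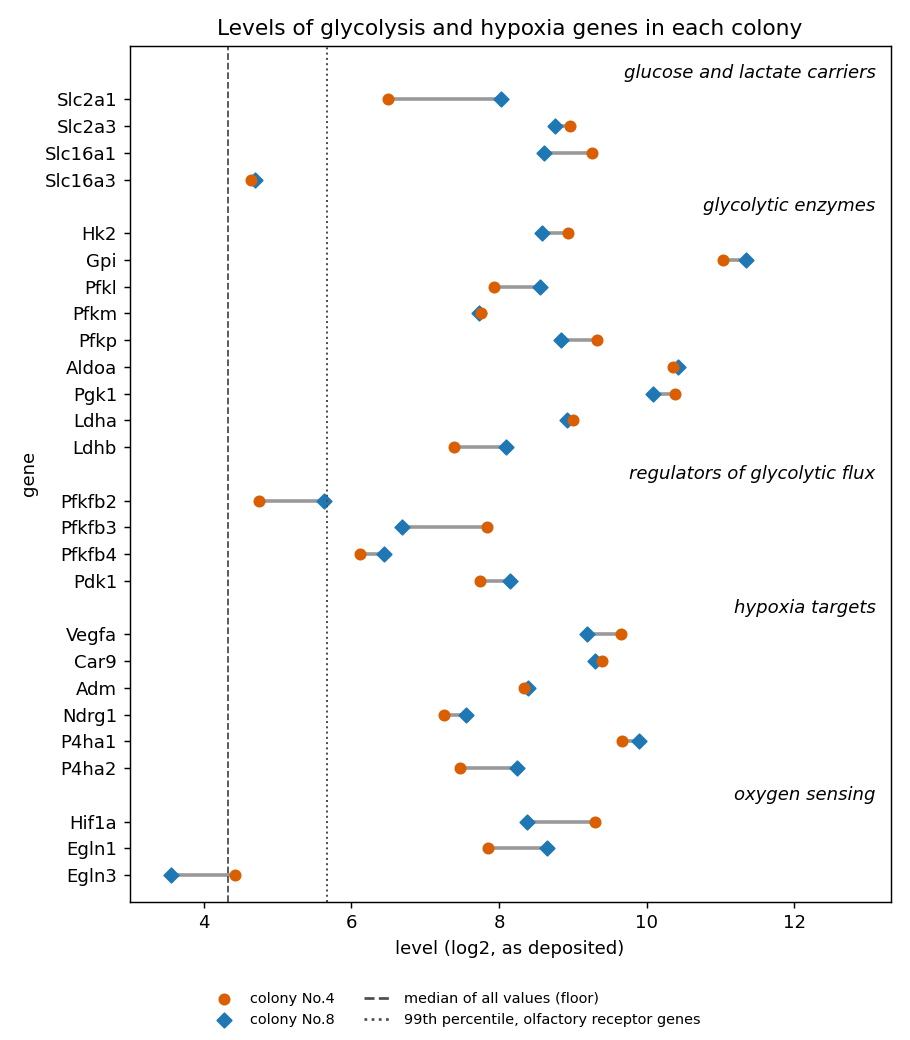
Level of each of the 26 measured genes (log2, horizontal axis) in colony No.4 (circles) and colony No.8 (diamonds), grouped by role, with 1 array per colony and no error bars. The longest lines are those of Slc2a1 (6.50 and 8.03) and Pfkfb3 (7.84 and 6.69), and Slc16a3, Pfkfb2 and Egln3 lie left of the dotted line at 5.67 in both colonies.

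The promoters of the 2 genes that differed most are printed here, with that of Pfkfb4, a paralog of Pfkfb3 whose level differed little. Each runs from 250 bases before to 50 bases after the annotated transcript start, in RefSeq's GRCr8 assembly. Capitals mark the core of the hypoxia response element, to which HIF binds, searched as ACGTG or GCGTG on either strand (CACGT or CACGC on the strand shown), with overlapping matches joined. The Slc2a1 window (chr5:138002272-138002571, plus strand) holds 4 such runs, the one read as ACGTG beginning 51 bases before the start. The Pfkfb3 window (chr17:71944683-71944982, plus strand) holds 1, the palindrome CACGTG, 42 bases before the start. These letters are also an E-box, so the match is not particular to HIF. The Pfkfb4 window (chr8:118525916-118526215, plus strand) holds none, and sequence outside the windows was not searched.
Slc2a1: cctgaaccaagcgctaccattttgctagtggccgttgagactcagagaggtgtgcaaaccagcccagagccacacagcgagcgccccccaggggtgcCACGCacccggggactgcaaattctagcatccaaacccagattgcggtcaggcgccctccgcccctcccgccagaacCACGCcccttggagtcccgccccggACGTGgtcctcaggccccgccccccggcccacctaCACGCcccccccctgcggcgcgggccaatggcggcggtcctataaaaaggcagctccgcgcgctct
Pfkfb3: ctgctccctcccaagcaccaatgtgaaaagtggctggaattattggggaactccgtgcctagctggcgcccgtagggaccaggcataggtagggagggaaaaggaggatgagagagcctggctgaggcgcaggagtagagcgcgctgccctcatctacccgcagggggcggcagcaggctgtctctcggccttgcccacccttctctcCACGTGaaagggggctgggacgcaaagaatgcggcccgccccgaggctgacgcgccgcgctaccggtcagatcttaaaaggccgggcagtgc
Pfkfb4: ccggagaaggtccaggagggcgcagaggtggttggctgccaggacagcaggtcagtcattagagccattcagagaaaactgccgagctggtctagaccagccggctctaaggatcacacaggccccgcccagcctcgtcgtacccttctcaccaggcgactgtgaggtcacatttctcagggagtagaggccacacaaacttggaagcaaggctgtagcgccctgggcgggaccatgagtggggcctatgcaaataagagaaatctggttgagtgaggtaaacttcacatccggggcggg

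The core was about as frequent in these promoters as in those of the other genes past the floor. RefSeq promoter entries were found for 23 of the 26 genes, in 26 windows, and not for Slc2a3, Pgk1 and Ndrg1. The core occurred in 61.5% of the 26 windows, in 60.3% of 9937 windows of genes past the floor and in 41.6% of all 33469 windows. Median GC content was 63.2% in the 26 windows, 60.7% for genes past the floor and 51.7% overall. Among the 23 genes, 16 had a core in at least 1 window. It was present in 60% of the windows of members higher in No.8 and in 63.6% of those higher in No.4. A match is a string of letters, not a shown binding site.

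Of the 4 carriers, 1 reached 2-fold. Slc2a1, the GLUT1 carrier that supplies basal glucose uptake in most cells, was at 6.50 in No.4 and 8.03 in No.8. The difference of 1.53 (2.89-fold) ranked as the 205th largest in size of the 11069 genes past the floor and the 121st of those toward No.8. Slc2a3, the high-affinity GLUT3 carrier typical of neurons, was at 8.96 and 8.76. The 2 carriers therefore differed by 1.53 and -0.20 between the same arrays.

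Slc16a1, the lactate and pyruvate carrier MCT1, was at 9.26 in No.4 against 8.60 in No.8, which is 1.58-fold higher in No.4. The hypoxia-induced lactate exporter gene Slc16a3 (MCT4) was at 4.65 and 4.70. Both values were under 5.67, so Slc16a3 may lie near background in both colonies, and its difference of 0.055 changed sign, to -0.0012, when a loess curve of difference on level was removed. It was the single one of the 26 genes whose sign depended on centring, quantile normalisation or loess. Bsg, the chaperone of both lactate carriers, was at 9.66 and 9.95.

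The enzymes of glycolysis were bright in both colonies and none of the 9 measured differed by 2-fold. Their median difference was -0.04, with 4 higher in No.8 and 5 higher in No.4. Hk2, the hexokinase that traps glucose in many tumours, was at 8.93 in No.4 and 8.59 in No.8. Gpi, which converts the product to fructose 6-phosphate, was at 11.03 and 11.35. Aldolase A (Aldoa), which splits the sugar, was at 10.35 and 10.42. Pgk1, the first step that yields ATP, was at 10.38 and 10.08. All 4 differences were smaller than 0.41, the 90th percentile of disagreement between paired features of a gene.

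The isoforms of phosphofructokinase, the committed step, differed in direction. Pfkl, the liver type, was at 7.93 in No.4 against 8.55 in No.8, or 1.54-fold higher in No.8. Pfkp, the platelet type, was at 9.33 and 8.84, 1.40-fold higher in No.4. Pfkm, the muscle type, differed by -0.04 (7.76 and 7.73). The enzyme is a tetramer in which these subunits can mix.

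Of the lactate dehydrogenase subunits, only Ldhb was past 1.5-fold. Ldhb, the heart-type subunit, was at 7.39 in No.4 and 8.10 in No.8, a difference of 0.71 (1.63-fold). Ldha, the muscle-type subunit and a classic HIF target, was at 9.00 and 8.92. Thus the 3 enzymes that led toward No.8 were Ldhb, Pfkl and Gpi, while Pfkp, Hk2 and Pgk1 led toward No.4. Only the differences of Ldhb, Pfkl and Pfkp were larger than the paired-feature disagreement of 0.41.

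The regulators of flux differed in both directions, with 3 higher in No.8 and 1 higher in No.4. Pfkfb3, the induced and highly kinase-active form, was at 7.84 in No.4 and 6.69 in No.8, a difference of -1.15 (2.21-fold higher in No.4). It was the 185th in order toward No.4. Pfkfb2, the heart form, was at 4.75 and 5.63, and Pfkfb4, another hypoxia-induced form, at 6.12 and 6.44. The Pfkfb2 difference of 0.88 lay wholly under 5.67, near background. Pdk1, the kinase that shuts pyruvate out of mitochondria, was at 7.75 and 8.15, 1.33-fold higher in No.8. The differences of Pfkfb4 (0.31) and Pdk1 (0.406) were within the paired-feature disagreement (90th percentile 0.4115). Of these regulators, only Pfkfb3 was clear of both limits.

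Adding 64 on the linear scale before taking log2, which damps dim genes, left Slc2a1 at 1.07 and took Pfkfb3 to -0.81, under 2-fold. Over all 17 glycolysis genes the median difference was 0.055 and the mean 0.097, against a median of 0.03 over all measured genes. The median was -0.036 over the 15 brighter genes (at 5.67 or more in either colony) and -0.0012 after loess, so its sign depended on these choices.

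**Figure D2:**
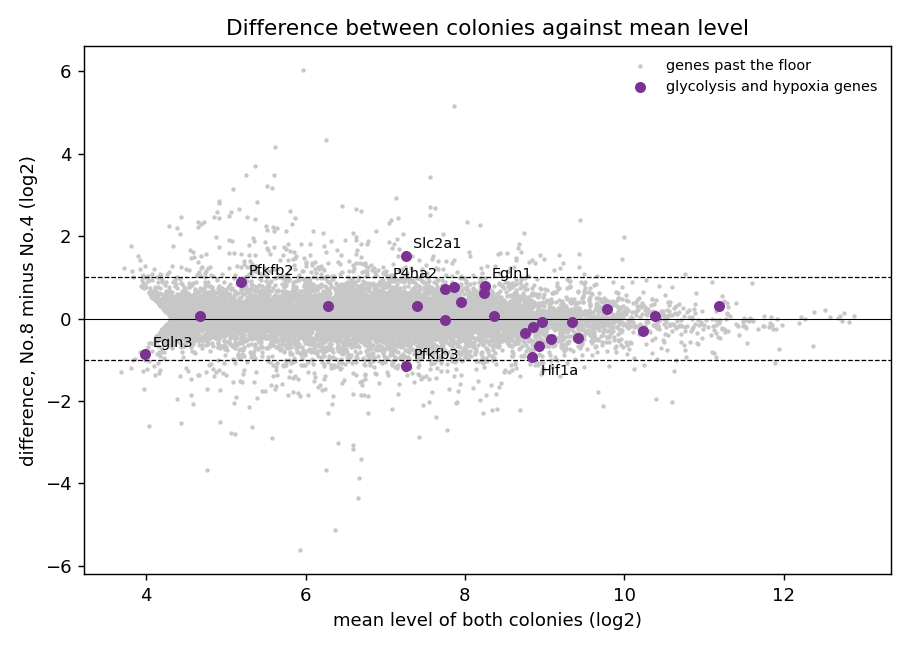
Difference between the colonies (No.8 minus No.4, log2) against mean level for the 11069 genes past the floor (grey) and the 26 glycolysis and hypoxia genes (purple), with dashed lines at 2-fold. Slc2a1 and Pfkfb3 are the 2 purple points beyond those lines.

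None of the 6 measured hypoxia targets outside glycolysis differed by 2-fold. Car9, the membrane carbonic anhydrase IX that is among the most hypoxia-specific markers, was at 9.39 in No.4 and 9.30 in No.8. Vegfa, the main growth factor for vessels, was at 9.65 and 9.19, 1.38-fold higher in No.4. Adm, the vasodilator peptide adrenomedullin, differed by 0.056 (8.34 and 8.40). Ndrg1, a stress-induced gene, was at 7.25 and 7.55. By sign, neither colony was the higher one for all of these markers. The differences of Car9, Adm and Ndrg1 were smaller than 0.41, the 90th percentile of disagreement between paired features of a gene.

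The collagen prolyl hydroxylase subunits were both higher in No.8, by unequal amounts. P4ha2 was at 7.48 in No.4 and 8.24 in No.8, a difference of 0.76 (1.70-fold). P4ha1 was at 9.67 and 9.90, 1.17-fold higher in No.8. These enzymes hydroxylate proline in procollagen so that its triple helix is stable.

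None of the 3 oxygen-sensing genes differed by 2-fold, and the 2 bright ones differed in opposite directions. Hif1a, the oxygen-regulated subunit of HIF, was at 9.30 in No.4 against 8.38 in No.8, or 1.89-fold higher in No.4. Egln1 (PHD2), the main hydroxylase that marks it for destruction and itself a HIF target, was at 7.85 and 8.65, 1.74-fold higher in No.8. So the factor's mRNA was lower and that of its main hydroxylase higher in No.8. HIF-alpha is controlled mostly as a protein, which these arrays did not measure. Egln3 (PHD3), often strongly induced by low oxygen, was at 4.43 and 3.56, under 5.67 in both colonies and under the floor in No.8. Its fold was 1.07 counted from the floor and 1.0, no difference, counted from 5.67.

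The median difference over all 9 of these genes was 0.056, with 5 higher in No.8 and 4 higher in No.4. The mean was -0.022, of opposite sign. None of the 9 reached 2-fold, and P4ha2, Egln1 and Hif1a passed 1.5-fold. Egln3 did so in deposited values but not counted from the floor.

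The wider pathway was described with 110 further genes in 6 lists, of which 98 were measured and 83 were past the floor. Of the 83, 6 differed by 2-fold or more, 2 toward No.8 and 4 toward No.4, beside the same 5.47% of all genes past the floor. Of 17 other glycolysis genes past the floor, 1 differed by 2-fold, Gpd1, which links glycolysis to glycerol lipids, at 8.48 in No.4 and 7.44 in No.8. Eno3, the muscle enolase, was at 6.62 and 7.40. The brain-type Aldoc (8.88 and 8.83) and the neuronal Eno2 (9.63 and 9.55) were bright and differed by less than 0.12.

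The pentose phosphate pathway, which branches off glycolysis to make NADPH and ribose, held 2 genes that were at least 2-fold higher in No.4, both for enzymes of its non-oxidative arm. Tkt, the transketolase gene, was at 11.38 in No.4 and 9.42 in No.8, a difference of -1.96 (3.88-fold). Taldo1, transaldolase, was at 10.73 and 9.52 (2.32-fold higher in No.4). Of 6 measured genes 4 were higher in No.4 and 2 in No.8. Rpe was at 7.51 and 6.97, while Rpia was at 6.92 and 7.23. The median over the 6 was -0.41.

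In the glycogen list, 0 of 10 genes past the floor reached 2-fold. Pgm1, the phosphoglucomutase that joins glycogen to glycolysis, came closest, at 7.50 in No.4 against 8.48 in No.8 (1.98-fold). Gyg1, which primes glycogen synthesis, was at 8.35 and 7.61. In the list of pyruvate entry into mitochondria, 0 of 12 reached 2-fold. Pdp1, the phosphatase that opposes Pdk1, was at 7.88 and 7.03, 1.80-fold higher in No.4. Pdk1 and Pdp1 thus differed in opposite directions, but the Pdk1 difference of 0.406 was within the paired-feature disagreement (90th percentile 0.4115). The other bright kinases were mixed, with Pdk2 at 7.95 and 7.71 and Pdk3 at 8.38 and 8.55. Pdk4, another kinase of the complex, was at 4.92 and 5.60, both under 5.67. Dlat, a core subunit of pyruvate dehydrogenase, was at 6.90 and 7.51.

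In the HIF system, 1 of 14 genes past the floor reached 2-fold. Cited2, which competes with HIF for its coactivators, was at 9.20 in No.4 against 7.90 in No.8 (2.46-fold higher in No.4). Arnt, the partner of HIF-alpha, was at 8.61 and 7.81 (1.75-fold), and Vhl, which recruits the ligase that destroys HIF-alpha, at 6.88 and 6.08 (1.73-fold), both higher in No.4. Epas1, the other main alpha subunit (HIF-2 alpha), was at 7.77 and 8.10. Hif1a and Arnt, which form the HIF-1 dimer, were both higher in No.4. The Epas1 difference of 0.33 was smaller than 0.41, the 90th percentile of disagreement between paired features of a gene. Hif3a was at 4.93 and 4.37, both under 5.67.

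Of 24 other HIF targets past the floor, 2 reached 2-fold toward No.8 and 0 toward No.4, beside 2.91% and 2.57% of all genes past the floor. With any difference counted, 17 were higher in No.8 and 7 in No.4, beside 53.2% and 45.5%. Only 19 of the 24 were clear of possible background in both colonies, among them all 7 higher in No.4. Of the 17, Ankrd37, Car12, Epo and Cxcr4 were possibly near background in both colonies, and Insig2 was in No.4. The lean toward No.8 in this count thus rests in part on signs of dim genes. Tfrc, the transferrin receptor through which cells take up iron, was at 6.21 and 8.92 (6.56-fold). Plod2, a lysyl hydroxylase of collagen, was at 8.17 and 9.72 (2.93-fold). Ero1a, the oxidase of disulphide formation, was at 9.66 and 10.54. The lipoprotein receptor gene Vldlr was at 8.27 and 7.40, higher in No.4. The median over the 24 was 0.14, against 0.04 over all genes past the floor.

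**Figure D3:**
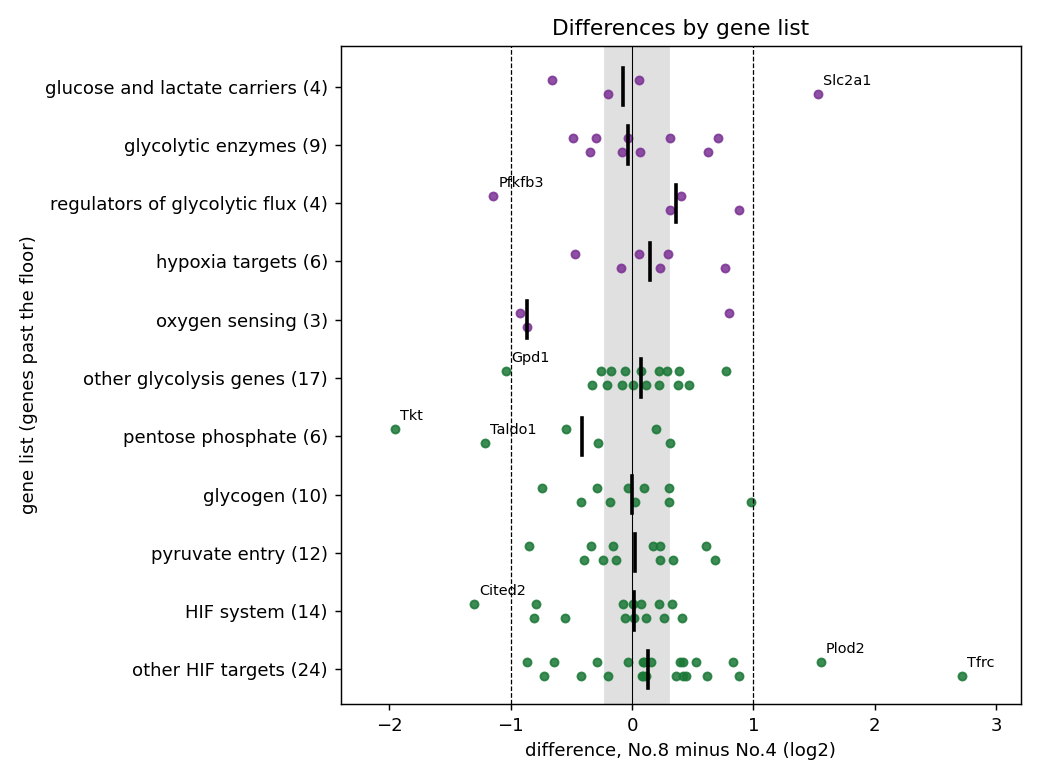
Difference between the colonies (No.8 minus No.4, log2) of each gene past the floor, by role (purple) and by wider list (green), with the number of genes in brackets, list medians as black bars, the middle 50% of all genes past the floor in grey (-0.22 to 0.30) and dashed lines at 2-fold. Tfrc, Plod2 and Slc2a1 lie beyond 2-fold toward No.8, and Tkt, Cited2, Taldo1, Pfkfb3 and Gpd1 toward No.4.

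The 26 genes lay on 15 chromosomes, at most 4 on one, and their neighbours differed little. For each gene, the 12 nearest genes past the floor on either side in RefSeq's gene order were taken. The medians of these 24 ranged from -0.09 to 0.30 over the 26 genes. Around Slc2a1 the neighbour median was -0.04, with 0 of 24 past 2-fold toward No.8 and 3 toward No.4. Around Pfkfb3 it was 0.15, and around Hif1a 0.06. The neighbour median had the sign of the gene itself in 12 of 26 cases.

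**Figure D4:**
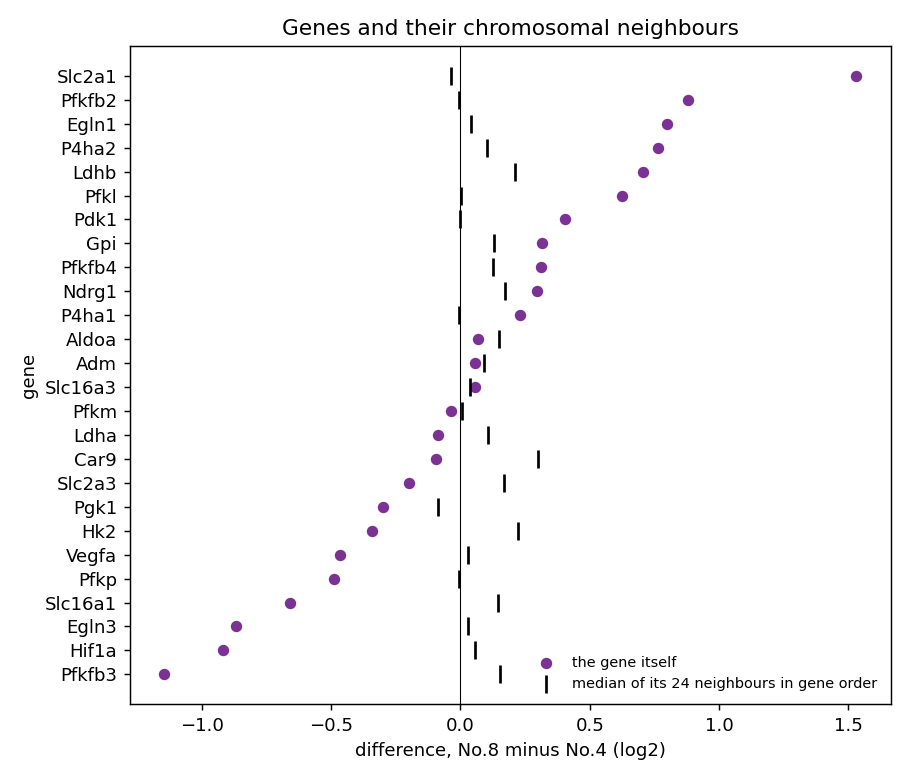
Difference between the colonies (No.8 minus No.4, log2) of each of the 26 genes (purple points) and the median difference of its 24 nearest neighbours in gene order (black ticks). The ticks stay between -0.09 and 0.30 while the genes run from -1.15 to 1.53.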

How the data were processed

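One array per colony was analysed, 2 in all. The authors deposited log2 levels for 36685 features; the scale is inferred from a highest value of 13.34, since no label or header states it, and their software, background correction, normalization and summarization steps are not given in the sources used. Quartiles of the 2 arrays were nearly equal (3.17 and 3.16 at the lower, 6.37 and 6.37 at the upper), so no scaling was added. Features were named through the platform annotation: 18511 had 1 gene symbol, 575 several and 17599 none, and only the first kind was used. The brightest feature stood for a gene. Older symbols were matched through synonyms in a RefSeq table (GRCr8), used for names and gene order.

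Differences, counts and medians were computed in Python 3.11.15 with pandas 2.3.3 and statsmodels 0.14.6, and the steps were tested on simulated data. No test was run. The members and lists were chosen with earlier results of these data known. All measured members are named. From each wider list, up to 4 genes with the largest differences past the floor are named, and every one at 2-fold. Bsg, Aldoc, Eno2, Epas1, Pdk2 and Pdk3 were chosen after their values were seen. Alternatives were 3 scalings, an offset, other floors, other features per gene, other folds and list means. The neighbour medians, the promoter search and the counts over brighter genes were added after the data were seen.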

Additional observations from a re-analysis of the deposited data

How the results depend on the processing

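The count of 2 genes at least 2-fold apart was the same after centring, quantile normalization, loess, either other floor and either other choice of feature. It was 1 with an offset of 64 on the linear scale, 10 at 1.5-fold and 0 at 4-fold. The background share was 1.51% with the offset, 6.35% with the floor at 5.67, 3.43% with no floor, 17.8% at 1.5-fold, 0.867% at 4-fold and 4.08% over genes at 5.67 or more in both colonies, the last chosen after seeing the data. The median of the 17 glycolysis genes was 0.0253 centred, 0.0615 after quantile normalization, -0.0012 after loess, 0.0157 with the offset and -0.0355 with the floor at 5.67, and their mean was 0.0968. The median of the 9 hypoxia and oxygen-sensing genes was 0.0265, 0.0725, 0.0517, 0.0472 and 0.1442 in the same order, and their mean was -0.022. These medians are close to 0. The glycolysis median changed sign between settings. The hypoxia and oxygen-sensing median stayed positive, but the mean of the same genes was negative, so neither direction is settled. None of the 3 scalings moved any of the 26 genes by more than 0.0772. Leaving out Car9 took the median over all 26 from 0.0557 to 0.0563. All 26 genes had 1 feature, so the choice of feature could not change them. No replicate could be left out, and no paired analysis was possible because each colony has 1 array and the result comes from no test.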

Other observations

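Further genes next to these pathways were examined after the values had been seen, and the lists were written then. Among 10 measured genes of collagen hydroxylation, the proline 3-hydroxylase gene P3h1 was at 9.14 in No.4 and 7.53 in No.8, a difference of -1.61. Plod2, the lysyl hydroxylase, differed by 1.55 in the other direction. P3h2 was at 8.91 and 8.35, whereas P4ha3 was at 8.41 and 8.58 and P4hb, the beta subunit shared by the prolyl 4-hydroxylases, at 11.16 and 11.44. Over the 10 genes, 7 were higher in No.8 and 3 higher in No.4, beside 53.2% and 45.5% of all genes past the floor. Of the 4 proline 3-hydroxylase family genes, P3h3 differed by -0.09 and P3h4 by 0.0073.

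The tricarboxylic acid cycle, which oxidises the carbon of pyruvate, had 0 of 14 measured genes at 2-fold and a median difference of 0.09. Idh3a (8.13 and 8.87) and Idh3b (9.07 and 8.53), both subunits of the NAD-linked isocitrate dehydrogenase, differed in opposite directions. Citrate synthase (Cs) was at 9.37 and 9.46. Among NADPH sources outside the pentose phosphate pathway, malic enzyme (Me1) was at 7.42 and 6.94 and Idh1 at 9.11 and 9.33. Txnip, induced by glucose and an inhibitor of glucose uptake, was at 6.09 in No.4 and 6.83 in No.8, in the same direction as Slc2a1.

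In the promoter windows, the palindrome CACGTG was found in 4 of 11 windows of genes higher in No.4 (Hif1a, Ldha, Pfkfb3 and Slc16a1) and in 0 of 15 windows of genes higher in No.8. It occurred in 9.49% of the windows of all genes past the floor and in 6.42% of all windows. This split was seen after the values and has no test. Genes were grouped by sign alone, however small the difference, and that of Ldha was -0.0857. The 11 windows belong to 10 genes and the 15 to 13 genes, so windows are not independent. No pattern is drawn from it. The cyclic AMP response element TGACGTCA was found in 1 of the 26 windows, that of Ldha, and in 3.07% of the windows of genes past the floor.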
